A study of Rattus norvegicus with 17 samples.

Results

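Foxl2, Kitlg, Kit, Amhr2, Gatm and Wt1 were followed in cultured fetal rat gubernacula exposed to insulin-like 3 (Insl3). The 6 genes were grouped under gonadal somatic cells, although not all of them are known mainly from such cells. Every probe set that the platform annotation assigns to 1 of these genes and to no other was taken, which gave 11 probe sets for 6 of the 14218 genes annotated in this way. They were picked with their values in the control, 10 nM and 100 nM arrays already known, so their differences between these groups are given as a description, with no p-value, and calls on them are counted only to describe the choice.

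The gubernaculum is the fetal ligament that draws the testis towards the scrotum. The tissue came from male fetuses of Long Evans rats at gestational day 17, with 2 gubernacular bulbs in each biological replicate. All cultures spent 24 h in medium without Insl3 and a further 24 h without hormone (control), with 10 nM Insl3 or with 100 nM Insl3. Of 17 arrays, 15 were compared, namely 6 from control cultures, 3 from 10 nM and 6 from 100 nM cultures. The submitters set aside 10 nM replicates 4 and 5 as outliers with a low yield of labelled cRNA, and these 2 arrays are given here only as values. The labels name no transgene or mutation. Each replicate pools whole bulbs, so fewer cells of a type and less RNA per cell cannot be told apart.

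INSL3 is a hormone of fetal Leydig cells that acts on the gubernaculum through its receptor RXFP2. FOXL2 is a forkhead transcription factor that maintains granulosa cell identity in the ovary and is also expressed in pituitary and eyelid mesenchyme. KITLG (stem cell factor) is the ligand of the receptor tyrosine kinase KIT, a pair that acts on germ cells, melanocytes, mast cells and blood progenitors. AMHR2 is the type 2 receptor through which anti-Mullerian hormone from Sertoli cells causes regression of the Mullerian ducts, GATM makes the creatine precursor guanidinoacetate, and WT1 is a zinc finger transcription factor of the urogenital ridge and the mesothelium.

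Promoter sequences from RefSeq (rat assembly GRCr8) were matched by gene to 5 of the 6 members. The 250 bases before the start of Kitlg, chr7:36782410-36782659 on the plus strand, are shown because Kitlg was among the members with the largest differences. The same stretch of Gatm, chr3:130129094-130129343 on the minus strand, is shown because Gatm was lower in the Insl3 cultures. Capitals mark matches, on either strand, to the GC box GGGCGG and to the TATA box, spelled TATAAA.
Kitlg: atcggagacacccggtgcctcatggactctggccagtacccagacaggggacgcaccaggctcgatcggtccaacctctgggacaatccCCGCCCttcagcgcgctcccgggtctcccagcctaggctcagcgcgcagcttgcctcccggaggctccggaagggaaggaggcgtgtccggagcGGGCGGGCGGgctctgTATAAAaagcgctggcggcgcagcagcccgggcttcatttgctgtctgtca
Gatm: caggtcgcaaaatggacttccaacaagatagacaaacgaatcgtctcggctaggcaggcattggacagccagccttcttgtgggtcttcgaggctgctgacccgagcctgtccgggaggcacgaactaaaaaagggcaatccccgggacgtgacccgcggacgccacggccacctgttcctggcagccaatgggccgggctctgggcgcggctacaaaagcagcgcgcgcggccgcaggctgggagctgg
Kitlg held 3 GC boxes, 2 of them overlapping, and a TATA box starting 51 bases before the annotated start, while Gatm held neither motif. Across 33469 rat promoters of the same length, 30.5% held GGGCGG and 12.9% held TATAAA on either strand. Also searched on both strands were the cyclic AMP response element TGACGTCA, its core TGACG (which lies within it), the forkhead site TGTTTAC and the steroidogenic factor site CAAGGTCA, held by 1.59%, 18.2%, 3.21% and 1.33% of those promoters. None of these 4 was found in the window of Kitlg, Kit, Amhr2, Gatm or Wt1.

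Values are GCRMA log2 levels per probe set, and a probe set counted as measured where it exceeded 2.28 log2 units, the 40th percentile of all values, in at least 3 of the 15 arrays. Of the 11 member probe sets 7 passed, covering 5 of the 6 genes. The other 4 lay below that value in all 15 arrays, namely the only probe set of Kit, 1 of Gatm and 2 of Kitlg. Levels of different probe sets are not comparable with each other, so each is compared only with itself across groups. The 15 arrays correlated with each other at r between 0.978 and 0.996 across tested probe sets. Differences, standard errors and calls come from limma fitted to all 18938 tested probe sets, with a call at an adjusted p below 0.05. Of the 5 measured member genes, 2 were called higher (Foxl2 and Kitlg), 1 lower (Gatm) and 2 were not called (Amhr2 and Wt1) at 100 nM against control, where 12.1% of all 10665 tested genes were called, 8.15% higher and 3.98% lower. At 10 nM against control 2 were called higher, again Foxl2 and Kitlg, and 3 were not called, with 8.67% of all genes called, 5.54% higher and 3.13% lower. With each gene read by its standing probe set, that of highest mean level, Foxl2 alone was called between 100 nM and 10 nM, where 0.778% of genes were called, 0.628% higher and 0.15% lower, and that call was absent when 10 nM replicate 2, 10 nM replicate 3 or 100 nM replicate 2 was omitted, with differences of 1.24, 1.26 and 1.35 log2 units in those fits beside 1.40 with all arrays. Without control replicate 6 Gatm was also called at 10 nM against control. By probe set the shares called in either direction were 10.9%, 10.6% and 1.43% in the 3 comparisons. Since the members were picked from these comparisons, the counts describe the choice and nothing is read from them. The median difference of the 7 measured probe sets was 0.18 log2 units at 100 nM against control and -0.01 at 10 nM against control, beside -0.0003 and 0.03 over all tested probe sets.

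Foxl2 was the member with the largest difference at 100 nM. Its probe set, 1382757_at, ran in control arrays from 3.84 to 4.25 log2 units with a median of 3.94, a value that 3 of the 6 repeated exactly, so the control level has little resolution and folds against it hold for the deposited values only. The 10 nM arrays read 6.22, 5.29 and 5.32, and the 100 nM arrays ran from 6.30 to 7.43 with a median of 7.20. The 3 groups did not overlap: every 10 nM array lay above every control, and every 100 nM array above every 10 nM array, although 10 nM replicate 1 came close to the lowest 100 nM array. This separation of the doses holds for the kept arrays only. Set-aside 10 nM replicate 5 read 6.75, above 100 nM replicates 1 (6.30) and 3 (6.66). Group means were 3.98 ± 0.14, 5.61 ± 0.53 and 7.02 ± 0.44 log2 units in control, 10 nM and 100 nM cultures (SD, n = 6, 3 and 6). The difference from control was 3.04 ± 0.20 log2 units (SE) at 100 nM, or 8.22-fold. At 10 nM it was 1.64 ± 0.24 log2 units, or 3.11-fold, and 100 nM exceeded 10 nM by 1.40 ± 0.24. The share of all tested probe sets with every array above every control was 3.48% at 100 nM and 9.15% at 10 nM, and 3.84% had every 100 nM array above every 10 nM array.

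**Figure D1:**
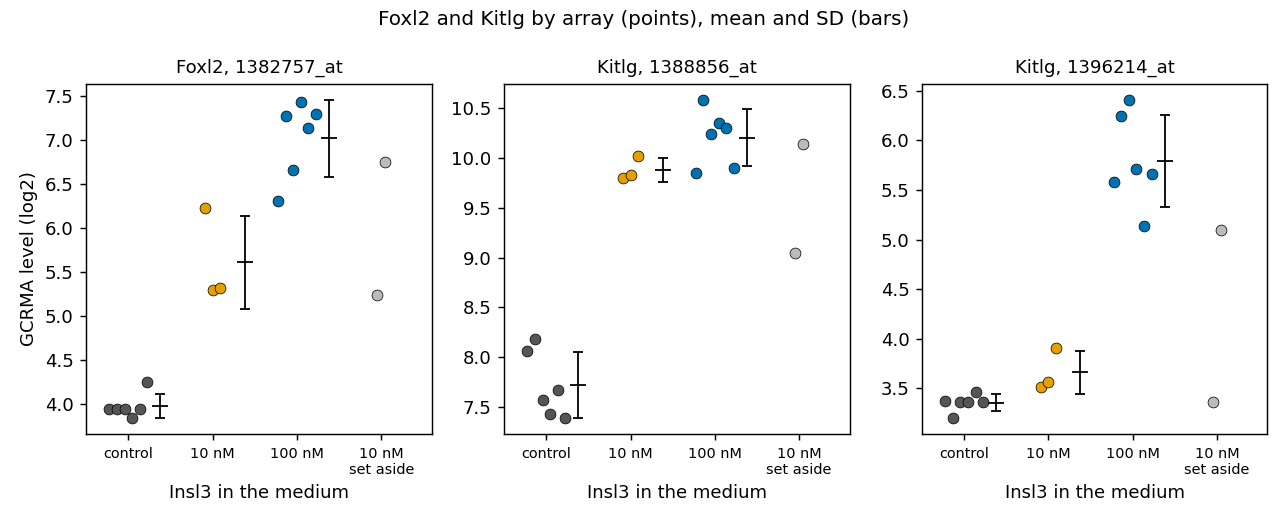
GCRMA log2 level (vertical axis, a separate scale in each panel) of Foxl2 and the 2 measured Kitlg probe sets in control, 10 nM and 100 nM arrays and in the 2 set-aside 10 nM arrays (grey); points are arrays, and horizontal marks with bars are group means and SDs. Foxl2 steps up with each dose in the kept arrays, while 1 set-aside 10 nM array reads 6.75, within the 100 nM range. Kitlg 1388856_at reads 9.80 or more in every kept Insl3 array. Kitlg 1396214_at stays below 4 in the kept 10 nM arrays, reads 5.10 in 1 set-aside array and reads at least 5.14 at 100 nM.

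Kitlg was higher at both doses by its main probe set, and its second measured probe set separated the doses. For 1388856_at control arrays ran from 7.38 to 8.18 log2 units with a median of 7.62, the 10 nM arrays read 9.80, 9.83 and 10.02, and the 100 nM arrays ran from 9.85 to 10.59 with a median of 10.27. All Insl3 arrays lay above all controls, beside 3.48% of all tested probe sets at 100 nM and 9.15% at 10 nM. The 2 doses overlapped, with 4 of 6 arrays at 100 nM above all 3 at 10 nM. The difference from control was 2.49 ± 0.16 log2 units at 100 nM (5.61-fold, n = 6 and 6) and 2.17 ± 0.19 at 10 nM (4.49-fold, n = 3 and 6). The 100 nM mean exceeded the 10 nM mean by 0.32 ± 0.19, which is close to the SD of 0.28 between the 100 nM arrays.

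The second Kitlg probe set, 1396214_at, had a different dose pattern. Control arrays ran from 3.20 to 3.46 log2 units with a median of 3.36, the 10 nM arrays read 3.51, 3.56 and 3.90, and the 100 nM arrays ran from 5.14 to 6.41 with a median of 5.69. The low end may have little resolution, since the controls had an SD of 0.09 and 2 of the 6 repeated 1 value exactly. The folds and the dose pattern therefore hold for the deposited values only. The 3 groups did not overlap, and the 3 kept 10 nM arrays read nearer to the controls than to the 100 nM arrays. Of all tested probe sets 3.48% had every 100 nM array above every control. The share was 9.15% for 10 nM above control and 3.84% for 100 nM above 10 nM. Of the set-aside 10 nM arrays, replicate 4 read 3.37 and replicate 5 read 5.10, the second close to the lowest 100 nM array. Against control the difference was 2.44 ± 0.17 at 100 nM (5.43-fold) and 0.31 ± 0.21 at 10 nM (1.24-fold). The 10 nM difference was 0.54 with the set-aside arrays and 0.18 without 10 nM replicate 3. The 100 nM mean exceeded the 10 nM mean by 2.13 ± 0.21 log2 units, the 12th largest of the 18938 differences between the doses, of which 1.43% were called in either direction. That share moved with single arrays, with 271 probe sets called from all 15 arrays, 3 without 10 nM replicate 3 and 619 without 100 nM replicate 5, and 11 of the 15 fits without 1 array moved it by more than 1.5 times. The difference of 1396214_at between the doses itself lay between 2.01 and 2.26 in those 15 fits. The remaining Kitlg probe sets, 1370770_s_at and 1388096_at, did not exceed 2.15 and 2.16 log2 units in any of the 15 arrays, so the 4 Kitlg probe sets do not give 1 reading of the gene.

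Kit, which encodes the receptor for Kitlg, was not measurable. Its single probe set, 1369822_at, read 2.11 log2 units in all 15 arrays, within 0.01 of the lowest value in the file, which gives a bound and not a level. Transcripts of cells that carry Kit were examined beside it. Of 12 mast cell markers with a probe set 9 were measured, and their mean level over the 12 ran from 4.41 to 6.11 log2 units at 100 nM and from 4.22 to 5.00 in control cultures, with 4.66 to 5.08 at 10 nM. The median difference of the 9 from control was 0.77 log2 units at 100 nM and 0.38 at 10 nM, beside 0.02 and 0.06 over all genes. Cpa3, the mast cell carboxypeptidase, rose by 1.36 ± 0.36 log2 units at 100 nM (adjusted p = 0.0283, limma). That call did not hold in 6 of the 15 fits that omitted an array (adjusted p up to 0.0607) or with the mean level of erythroid markers as a covariate (adjusted p = 0.092). The chymase gene Mcpt1 averaged 11.14 log2 units at 100 nM and 9.83 in control cultures and did not pass the test (adjusted p = 0.0602), nor did the 7 other measured mast cell markers. Fcer1a and Mcpt4 stayed below the filter value in every array. Of 6 melanocyte markers only Pmel was measured, and Tyr, Tyrp1 and Mlana were below the filter value in every array.

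Downstream of the receptor, most signalling genes were not called. Of 23 measured genes, each by its standing probe set, 2 fell at 100 nM and none rose, beside 12.1% of all genes called, with a median difference of -0.01 beside 0.02 over all genes. Ptpn6, a phosphatase of blood cells that dampens Kit signalling, fell by 0.71 log2 units (adjusted p = 0.0108), and the adaptor gene Grb10 fell by 0.18 (adjusted p = 0.0154), while its other probe sets, at -0.32 and -0.77, were not called. Erythroid markers fell in the same comparison, 7 of 12 measured, and their mean level over 13 genes ran from 4.92 to 7.03 at 100 nM and from 6.30 to 8.51 in control cultures. With the mean of the 12 measured erythroid markers as a covariate neither Ptpn6 (adjusted p = 0.185) nor Grb10 (adjusted p = 0.0503) was called, and of the 13 pathway genes called at 100 nM 6 were still called and 7 were not, namely Foxo3, Ptpn6, Grb10, Smad1, Slc6a8, Oat and Arg2. Over all tested probe sets the same covariate took the calls at 100 nM from 2065 to 689. The erythroid mean itself differed between these groups, so a call lost with it, here or elsewhere, is not read as a result about that gene. At 10 nM the phosphatase gene Ptpn11, which passes the signal on to Ras, rose by 0.30 (adjusted p = 0.00819) by its standing probe set but fell by 0.67 by the other (adjusted p = 0.00244). The kinase gene Src rose by 0.43 (adjusted p = 0.0176) and by 0.76 by its other probe set, which also rose at 100 nM, by 0.85 (adjusted p = 0.0046). Pik3r1, a regulatory subunit of phosphoinositide 3-kinase, fell by 0.82 (adjusted p = 0.0217). Further probe sets of Cbl, a ubiquitin ligase gene, of Pik3ca and of Grb10 fell at 10 nM where the standing ones were not called. Omitting single arrays removed the calls of Src in 2 and of Pik3r1 in 3 of 15 fits (adjusted p up to 0.0928 and 0.118).

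Amhr2 showed no separation between the groups. Its probe set, 1368243_at, read 5.11 log2 units to within 0.01 in 8 of the 15 arrays, all 3 at 10 nM among them, a repeated value that leaves the probe set little resolution. Control arrays ran from 4.81 to 6.03 with a median of 5.11, and 100 nM arrays from 5.11 to 5.40 with a median of 5.23. The groups overlapped fully, with a difference from control of 0.01 ± 0.16 log2 units at 100 nM and -0.13 ± 0.19 at 10 nM. The set-aside arrays read 6.51 and 5.77, and with them in the 10 nM group that difference became 0.28.

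The ligand of Amhr2 and its shared signalling chain were listed beside it. Amh was below the filter value in every array. Of 13 measured genes of the list 1 standing probe set fell and none rose at 100 nM, beside 12.1% of all genes called, the signal transducer gene Smad1, which fell by 0.22 log2 units (adjusted p = 0.0165) and by 0.43 by its second probe set (adjusted p = 0.0432). Another Smad5 probe set rose at 100 nM, by 0.41 (adjusted p = 0.0388). At 10 nM 3 fell and 1 rose, beside 8.67% of all genes called. Bmpr1a, a type 1 receptor used by the anti-Mullerian hormone pathway in mouse, fell by 0.85 (adjusted p = 0.00566), Id2, an inhibitor of helix-loop-helix factors, by 0.96 (adjusted p = 0.0124) and Smad1 by 0.26 (adjusted p = 0.0216). The second probe sets of Id2 and Smad1 fell too. Smad5 rose by 0.42 by its standing probe set (adjusted p = 0.0471), while a further Smad5 probe set fell by 0.89 (adjusted p = 0.0197). Omitting single arrays removed the calls of Smad5 in 11, of Smad1 in 3 and of Id2 in 1 of 15 fits (adjusted p up to 0.18, 0.0955 and 0.0724).

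Gatm was lower in the Insl3 cultures by a small amount. For 1367627_at control arrays ran from 12.52 to 12.90 log2 units with a median of 12.79, the 10 nM arrays read 12.40, 12.50 and 12.60, and the 100 nM arrays ran from 12.09 to 12.50 with a median of 12.31. All 6 arrays at 100 nM lay below all controls, the closest pair reading 12.50 at 100 nM and 12.52 in control, and 2 of 3 at 10 nM did. The share of tested probe sets with every 100 nM array below every control was 1.48%. The difference from control was -0.44 ± 0.08 log2 units at 100 nM, a level 1.36-fold lower, and -0.25 ± 0.10 at 10 nM, so that the means of 12.75, 12.50 and 12.31 stepped down with dose while the 2 doses overlapped. The second Gatm probe set, 1377784_at, stayed at 2.11 in all 15 arrays.

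Other genes of creatine handling were listed beside Gatm. Gamt, the enzyme that completes creatine synthesis, differed by -0.03 log2 units at 100 nM and was not called (adjusted p = 0.944). Of 8 measured genes 2 rose and 1 fell at 100 nM, beside 8.15% of all genes called higher and 3.98% called lower. The creatine transporter gene Slc6a8 rose by 0.40 at 100 nM (adjusted p = 0.0212) and by 0.51 at 10 nM (adjusted p = 0.0162). Those calls failed in 1 and 2 of the 15 fits that omitted an array (adjusted p up to 0.0507 and 0.0805), and a second Slc6a8 probe set, at 0.12 for 100 nM, was not called. The ornithine aminotransferase gene Oat rose by 0.19 (adjusted p = 0.0164) and the arginase gene Arg2 fell by 0.81 (adjusted p = 0.0345). The Arg2 call failed in 5 of 15 such fits (adjusted p up to 0.0702).

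Wt1 overlapped between Insl3 and control cultures by both of its probe sets. For 1377223_at control arrays ran from 11.70 to 12.19 log2 units with a median of 11.95, the 10 nM arrays read 11.90, 12.03 and 11.91, and the 100 nM arrays ran from 11.67 to 12.07 with a median of 12.03. All 3 groups overlapped, and the differences from control were 0.01 ± 0.09 at 100 nM and -0.01 ± 0.11 at 10 nM. For 1369695_at the values were 7.58 to 8.30 with a median of 7.98 in control arrays, 7.86, 7.85 and 7.94 at 10 nM, and 8.01 to 8.38 with a median of 8.07 at 100 nM. Here the 100 nM arrays all lay above the 10 nM arrays, as they did for 3.84% of all tested probe sets, but overlapped the controls. The differences from control were 0.18 ± 0.10 at 100 nM and -0.08 ± 0.13 at 10 nM.

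Mesothelial markers, from a cell layer in which Wt1 is expressed, varied widely, with a mean level over 10 genes of 7.29 to 8.48 at 100 nM and 6.68 to 9.32 in control cultures, and their part in the Wt1 values was not tested. Of these 10 only Pdpn, the podoplanin gene, passed the test at 100 nM, rising by 1.38 (adjusted p = 0.00416), a call lost with the erythroid mean as a covariate (adjusted p = 0.137). At 10 nM Pdpn was also called higher, in all 15 fits that omitted an array (adjusted p up to 0.0307) and with the erythroid covariate (adjusted p = 0.00928).

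**Figure D2:**
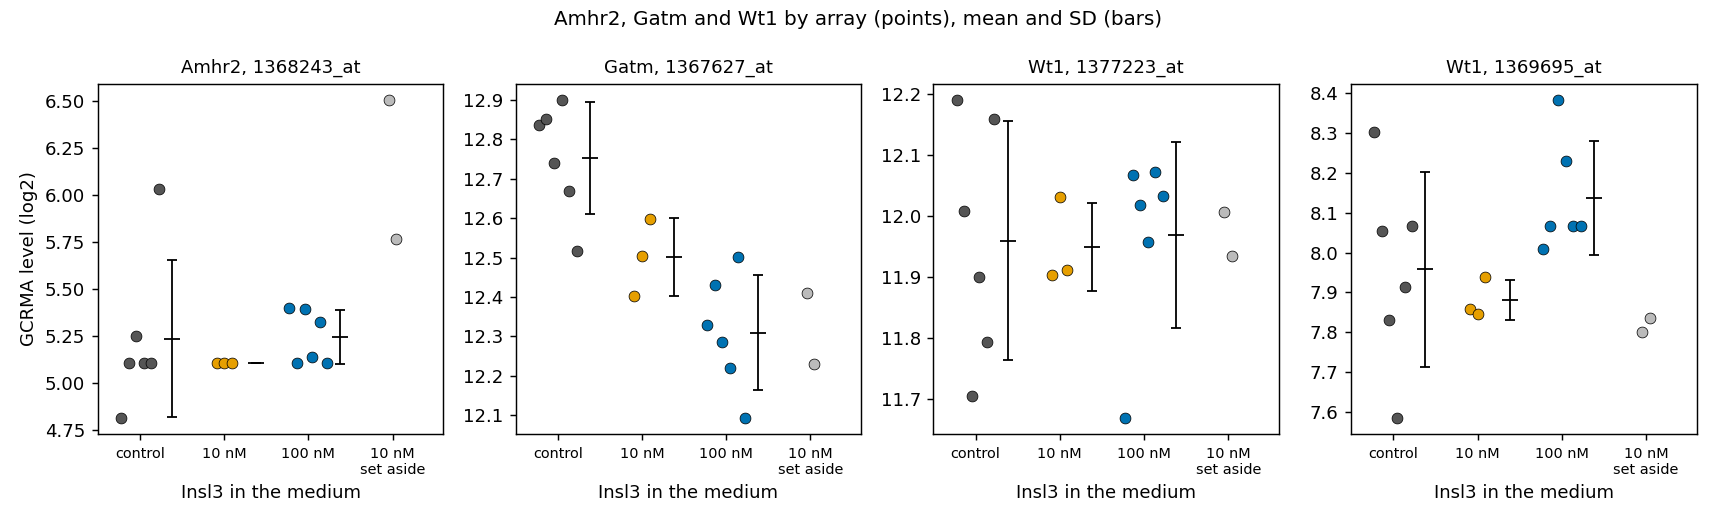
GCRMA log2 level (vertical axis, a separate scale in each panel) of Amhr2, Gatm and the 2 Wt1 probe sets in control, 10 nM and 100 nM arrays and in the 2 set-aside 10 nM arrays (grey); points are arrays, and horizontal marks with bars are group means and SDs. Gatm reads at most 12.50 in all 100 nM arrays, Amhr2 repeats the value 5.11, and both Wt1 panels overlap between 100 nM and control.

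**Figure D3:**
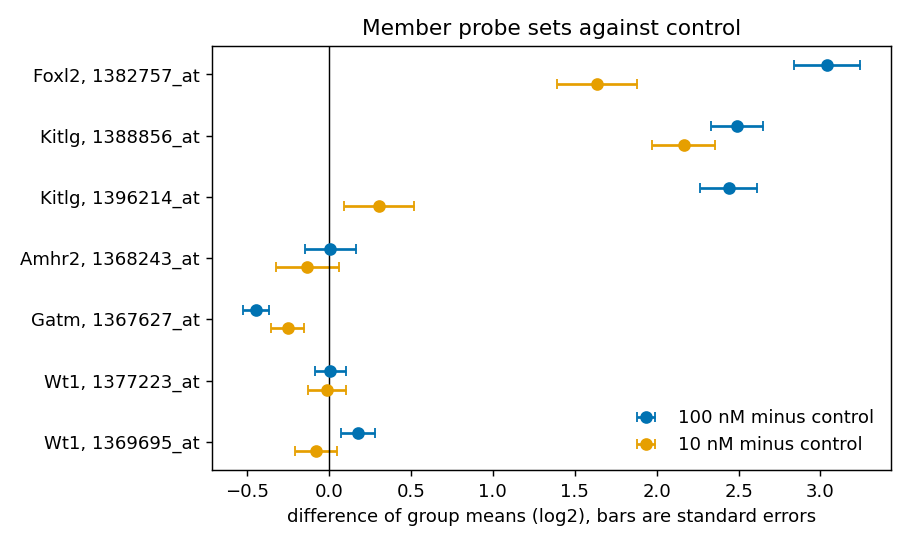
Difference of group means in log2 units (horizontal axis) for the 7 measured probe sets, 100 nM minus control (blue) and 10 nM minus control (orange), with standard errors as bars. Foxl2 and Kitlg lie far to the right of 0 at 100 nM, Kitlg 1396214_at lies at 0.31 at 10 nM, and Gatm lies left of 0 at both doses.

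Of 13 measured factors, partners and targets of Wt1, 2 fell at 100 nM and none rose, with a median difference of -0.16 log2 units beside 0.02 over all genes, and none was called at 10 nM (limma), beside 12.1% and 8.67% of all genes called. Zfpm2, a cofactor of GATA factors in gonad and heart, fell by 1.26 ± 0.26 log2 units (adjusted p = 0.00786) and Pawr, which encodes a protein that binds WT1, by 0.41 (adjusted p = 0.024). The Pawr call failed in 3 of the 15 fits that omitted an array (adjusted p up to 0.0571). Gata4, Nr5a1, Nr0b1 and Lhx9, which act with Wt1 in the early gonad, did not pass the filter.

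Of 12 other forkhead genes measured, 1 fell at 100 nM, and at 10 nM 1 rose and 1 fell, beside 12.1% and 8.67% of all genes called. Foxo3 fell by 0.36 log2 units at 100 nM (adjusted p = 0.000861). Foxo1, an effector of insulin signalling, averaged 6.03 at 10 nM and 7.44 in control cultures, a fall of 1.41 (adjusted p = 0.0045), but 7.48 at 100 nM. Foxk2 rose by 0.31 at 10 nM (adjusted p = 0.0471), a call that failed in 11 of the 15 fits that omitted an array (adjusted p up to 0.17), and its other probe sets were not called. Foxp1 was not called by the probe set with its highest level, while 1 of its 3 others fell at 100 nM, by 0.53 (adjusted p = 0.0412), and 2 of the 3 fell at 10 nM, by 0.57 (adjusted p = 0.0299) and 0.90 (adjusted p = 0.0288).

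The ovarian somatic list held the pathway genes with the largest differences. Of 10 measured genes 4 rose and none fell at 100 nM, beside 8.15% and 3.98% of all genes, with a median difference of 0.46 log2 units beside 0.02 over all genes. This list, like the other gene lists, was chosen with earlier results of these data known. Its counts and median therefore describe the choice, and nothing is read from them about the list as a whole. Inhbb, the inhibin and activin beta B subunit gene, rose by 4.13 at 100 nM (adjusted p = 4.52e-06) and by 2.39 at 10 nM (adjusted p = 0.00238). Wnt4, an ovary-promoting Wnt ligand gene, rose by 1.85 at 100 nM (adjusted p = 2.01e-05) and by 1.49 at 10 nM (adjusted p = 0.00079). Bmp2, a ligand gene of the fetal ovary, rose by 1.11 at 100 nM (adjusted p = 0.000487) and by 0.98 at 10 nM (adjusted p = 0.0043). Its second probe set rose by 1.00 at 100 nM (adjusted p = 0.0112) but stood at -0.30 at 10 nM and was not called there (adjusted p = 0.555). Fst, the activin-binding protein gene and a reported target of FOXL2 in mouse and human cells, rose by 0.85 at 100 nM (adjusted p = 2.91e-05) but differed by 0.25 at 10 nM (adjusted p = 0.164), and the doses differed by 0.61 (adjusted p = 0.0182). Its second probe set rose by 0.77 at 100 nM (adjusted p = 0.0022) but differed by 0.45 between the doses and was not called there (adjusted p = 0.214). At 10 nM 4 rose and 1 fell, Irx5 by 0.74 (adjusted p = 0.00546), which averaged 7.25 log2 units at 100 nM and 7.24 in control cultures. The ovarian genes Rspo1, Cyp19a1, Esr2, Lhx9 and Hsd17b1 did not pass the filter. Further probe sets were called where the standing ones were not for Irx3, which rose by 0.45 at 100 nM (adjusted p = 0.00553), and Inhba, which fell by 1.04 at 10 nM (adjusted p = 0.0446).

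Of 14 genes reported as FOXL2 targets only 5 were measured, and 8 with a probe set, among them Star, Gnrhr, Fshb and Cga, did not pass the filter. At 100 nM only Fst was called, beside 12.1% of all genes, and at 10 nM only the cyclin gene Ccnd2, beside 8.67%. Ccnd2 fell by 0.91 log2 units (adjusted p = 0.00711), a call that failed in 1 of the 15 fits that omitted an array (adjusted p = 0.0566). Ptgs2 and Sod2 differed by -0.48 and 0.11 at 100 nM and were not called (adjusted p = 0.575 and 0.684).

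Taking each gene of the 7 pathway lists once, 13 of 82 measured genes were called at 100 nM, 6 higher and 7 lower, and 16 at 10 nM, 9 higher and 7 lower, beside 12.1% and 8.67% of all tested genes. Without control replicate 6 the first count was 20, and without 10 nM replicate 3 the second was 9. Nr5a2, which passed the filter only through the 10 nM arrays, is among the genes called higher at 10 nM with all arrays. The lists were chosen with earlier results of these data known, so these counts describe the choice.

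**Figure D4:**
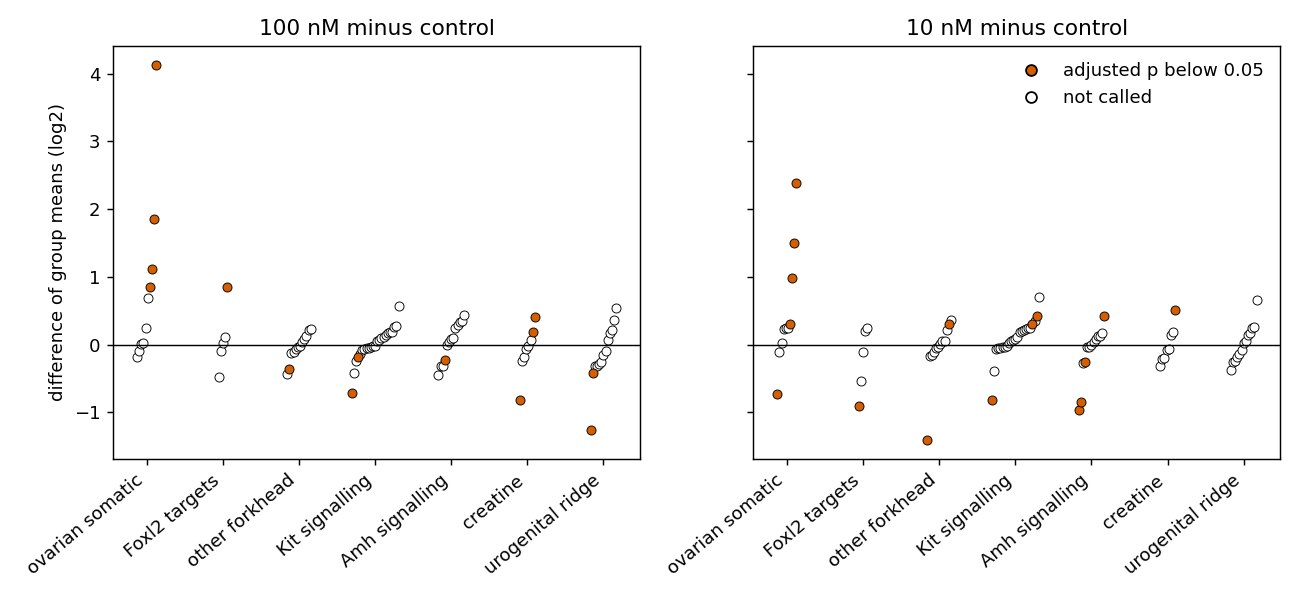
Difference of group means in log2 units (vertical axis) for the measured genes of the 7 pathway lists, 100 nM minus control (left) and 10 nM minus control (right); each point is a gene, ordered by value within its list and filled where its adjusted p was below 0.05. Fst and Inha stand in both the ovarian and the Foxl2 target lists. Inhbb and Wnt4 form the 2 highest points, at 4.13 and 1.85 in the left panel, and most points lie within 0.5 of 0.

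Defining markers of gonadal cell types were largely below the filter value. Of 12 Sertoli cell markers with a probe set, Amh, Dhh, Dmrt1, Ptgds, Nr0b1 and Nr5a1 stayed below it in every array, as did 8 of 10 markers of Leydig and steroidogenic cells, among them Insl3, Star, Cyp11a1 and Lhcgr, and 3 of 4 germ cell markers. Of the 2 measured Leydig and steroidogenic markers Scarb1 was called higher at both doses, beside 8.15% and 5.54% of all genes called higher. Both calls held in all 15 fits that omitted an array (adjusted p up to 0.0416 and 0.0174). With the erythroid covariate that at 100 nM was lost (adjusted p = 0.138) and that at 10 nM was kept (adjusted p = 0.00318). A second Scarb1 probe set rose by 0.40 at 10 nM (adjusted p = 0.0253) and was not called at 100 nM. The mean level of the 12 Sertoli markers was 3.85 to 4.11 at 100 nM and 3.99 to 4.33 in control cultures. Of the 5 measured Sertoli markers Cldn11, a tight junction gene, fell, by 1.61 at 100 nM (adjusted p = 0.0249) and by 2.18 at 10 nM (adjusted p = 0.0135), though these calls failed in 5 and 1 of the 15 fits that omitted an array (adjusted p up to 0.0594 and 0.087), and that at 100 nM was lost with the erythroid covariate (adjusted p = 0.623). Genes of gubernacular mesenchyme and muscle had a mean level of 11.24 to 11.40 at 100 nM and 11.29 to 11.41 in control cultures over 10 genes, among them Hoxa10, Pdgfra and Des. Within that list Hoxa11, a limb and urogenital homeobox gene, rose by 0.31 at 100 nM (adjusted p = 0.0244) and Myod1, a myogenic factor gene, fell by 0.32 (adjusted p = 0.0238). Omitting an array removed these calls in 3 and 2 of 15 fits (adjusted p up to 0.0562 and 0.0539), and both were lost with the erythroid covariate (adjusted p = 0.251 and 0.163). A second Nr2f2 probe set fell by 1.51 at 10 nM (adjusted p = 0.00168). Rxfp2 was not analysed here.

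The genes whose profile over the 15 arrays lay closest to Foxl2 and to Kitlg 1388856_at were found by the root mean square difference between profiles, each centred on its own mean, among 10660 other genes. Closest to Foxl2 were Cldn5 at 0.31 log2 units, Twist2 at 0.39, Ly6i at 0.45 and Il1rl1 at 0.49, against a median of 1.40 over all genes compared. Cldn5 encodes an endothelial tight junction protein, Twist2 a mesenchymal transcription factor and Il1rl1 the receptor of interleukin 33. Closest to Kitlg were Kcne4, a potassium channel subunit gene, at 0.32, Cpe, the carboxypeptidase that processes peptide hormones, at 0.36, the integrin gene Itgb3 at 0.39 and Tmem100 at 0.41, against a median of 1.20. All points share the same 15 arrays and the same step between control and Insl3 cultures. The profiles were centred but not scaled, so the likeness describes the shape and the size of the differences together. Amhr2, Gatm and Wt1 spanned less than 1 log2 unit between group means and were not compared in this way.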

How the data were processed

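From each replicate 150 ng of total RNA was amplified, biotin-labelled and hybridised to an Affymetrix array, per the labels' protocols. The deposited log2 values came from GCRMA, which the authors ran, per the submitters' processing notes. Its version and the arrays it was run over are not given in the sources used here. The base of the logarithm was taken from the range of the values, 2.11 to 16.9.

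Of 31099 probe sets 20832 carried 1 gene in the platform annotation, and 20764 of these matched the GRCr8 gene table. After removal of 57 control probe sets, 18938 above 2.28 in at least 3 arrays were tested. One limma model (version 3.58.1 in R 4.3.3, lmFit then eBayes) covered all 3 groups and was tested 2-sided, with Benjamini-Hochberg adjustment over all 18938 and a threshold of 0.05. Each adjusted p in the text is from limma. The script was tested on simulated data. Where several tested probe sets belonged to a gene, that of highest mean level (the standing probe set) represented it. The number of arrays limits the precision.

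The members, the 15 gene lists (222 genes, 129 measured) and the motifs were chosen with earlier results of these data known. From each list up to 4 called genes were named, by size of difference, besides counts of 5 or fewer and defining genes below the filter, chosen after their values were seen. The 4 closest profiles were named for members spanning at least 1 log2 unit. Alternatives covered normalization, filter, variance model, set-aside arrays, replicate numbers, replicate sets, an erythroid covariate and leaving out each array.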

Additional observations from a re-analysis of the deposited data

Results flagged for a closer look

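In control cultures, replicate 6 stood apart from the other 5 for Foxl2, at 4.25 log2 units, and for Amhr2, at 6.03. Control replicate 2 was low for Kitlg 1396214_at, at 3.20. At 100 nM, replicate 1 was low for Wt1 1377223_at, at 11.67. Each gap to the nearest array exceeded 0.625 of the group's range, the critical value for 6 arrays. Chance alone gives about 1 such array in 20 groups where values are continuous, with 14 groups examined. In the control arrays Foxl2, Amhr2 and Kitlg 1396214_at repeated a value exactly, so that rate may not apply to them.

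The 2 set-aside 10 nM arrays, which enter no comparison, both read above all 6 controls for Foxl2, at 5.23 and 6.75 log2 units, and for Kitlg 1388856_at, at 9.04 and 10.15, in replicates 4 and 5. For Amhr2 and for Kitlg 1396214_at not both of them did.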

How the results depend on the processing

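Of 491 alternative values of the 21 member differences, 485 moved by less than the SD between replicates, 6 by more, and no called difference changed sign. The 6 were Wt1 at 100 nM against control, at -0.20 (1377223_at) and -0.09 (1369695_at) within replicates 1, 2 and 6 and 0.22 and 0.45 within 3, 4 and 5, and Amhr2 with the set-aside arrays, at 0.28 for 10 nM against control and -0.27 for 100 nM against 10 nM. The replicate sets came from an earlier look at these data and match no label. Calls on members restate their choice and support nothing: those against control differed in 2 of 25 alternatives at 100 nM and 2 of 23 at 10 nM, all through Gatm, and that of Foxl2 between the doses was absent in 6 of 23.

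At 100 nM against control 2065 probe sets were called, but 1008 with the set-aside arrays, 200 within replicates 1, 2 and 6 and 689 with the erythroid covariate; of the pathway genes 13 were called, but 7, 4 and 7 under the same settings and 20 with a term for the replicate sets. Between the doses 271 were called, but 22 without the filter, 531 with that term and 111 with the erythroid covariate. Leaving out 1 array gave 1442 to 2616 probe sets and 11 to 20 pathway genes at 100 nM against control, 1020 to 2495 and 9 to 18 at 10 nM against control (2004 and 16 with all arrays, 1020 and 9 without 10 nM replicate 3, 1256 probe sets without 10 nM replicate 1), and 3 to 619 between the doses. The causes were not tested. Same-numbered replicates were taken to share only a number, since not every pair's deviations correlated above 0.1 (0.01 to 0.20 for 100 nM and control, -0.04 to 0.13 for 10 nM and control, -0.07 to 0.19 for 100 nM and 10 nM) and not every replicate correlated best with its own number. A single pair can fail this rule, and the correlations for 100 nM and control were all positive, so it does not show that pairing is absent. The replicate block gave 1781, 1708 and 429 called probe sets in the 3 comparisons.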
